A study of Mus musculus with 21 samples.

Results

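Cathepsins are the proteases of the lysosome, and 10 of their genes (Ctsa, Ctsb, Ctsc, Ctsd, Ctse, Ctsh, Ctsk, Ctsl, Ctss and Ctsz) were followed here across 21 RNA-sequencing libraries of mouse kidney macrophages. The members were taken by gene symbol from the deposited count table. Each symbol had 1 line there, so 10 of the 34236 gene names in the table were used. The family was chosen by its counts in these same 21 libraries, with earlier results on them known, so the levels and contrasts below describe the members and are no independent support. Kidney cells of male C57BL/6J mice aged 24 weeks were sorted by flow cytometry into F4/80+CD64+ macrophages of 3 kinds. By the study's methods the sort kept live CD45+ cells and discarded those stained for markers of T, B or NK cells, red cells or granulocytes. These were CD11c-high macrophages (CD11chiMϕ) and CD11c-low macrophages (CD11cloMϕ), which the labels call monocyte-derived, and kidney-resident macrophages (KRM). The gate for KRM was intermediate for CD11b and CD11c, and that of the others high for CD11b. Mice had either sham surgery (Sham) or renal artery stenosis (RAS), in which the artery of the right kidney was fitted with a cuff. The cells had no treatment in culture. CD11chiMϕ came from 3 Sham and 4 RAS libraries, CD11cloMϕ from 3 Sham and 4 RAS libraries, and KRM from 4 Sham and 3 RAS libraries. The study's methods give 3 RAS samples for each population. The labels do not say whether each library came from its own mouse, so p-values measure the spread between these libraries, which may in part be technical.

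Most cathepsins are made as inactive precursors, tagged with mannose 6-phosphate and delivered to acidic compartments, where the propeptide is removed. Ctss, Ctsl, Ctsk, Ctsb, Ctsc, Ctsh and Ctsz belong to the papain family of cysteine proteases, Ctsd and Ctse are aspartic proteases, and Ctsa is a serine carboxypeptidase. In macrophages these enzymes degrade engulfed protein and cut the invariant chain and antigens for presentation on MHC class II. Cathepsin K is best known from osteoclasts, where it degrades collagen.

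Library totals ranged from 6891148 to 18592395 counts, and levels are given in CPM, the count of a gene scaled to the total of its library. The 8 macrophage markers were counted in every library, and their summed level ranged from 2072 to 10650.0 CPM. Replicate 3 of the Sham CD11chiMϕ stood apart. Its 8 proximal tubule markers summed to 49153 CPM, against 779 and 1007 in the other two libraries of that group, and its macrophage markers were the lowest of all. The same sum was 8833 CPM in Sham CD11cloMϕ replicate 3 and 8367 CPM in Sham KRM replicate 3. Among the RAS KRM, replicate 1 differed from replicates 2 and 3. Its 5 T and NK cell markers summed to 259.5 CPM against 28.6 and 27.4, and its 5 distal nephron markers to 106 CPM against 4151 and 2995. Itgax, which encodes CD11c, averaged 298 ± 163 CPM (SD) in Sham CD11chiMϕ, 19.5 ± 8.39 in Sham CD11cloMϕ and 387 ± 43.4 in Sham KRM, so the KRM mean was not between the other two as the gate was, and KRM and CD11chiMϕ libraries overlapped. Where leaving out one of these libraries changed the call of a cathepsin, or ended that of another gene named, this is stated. For the other genes the largest adjusted p among the runs that ended the call is given. RAS CD11chiMϕ replicates 3 and 4 were more alike in log2 CPM (r = 0.987) than the other pairs of that group (0.827 to 0.886). So were RAS KRM replicates 2 and 3 (r = 0.982, other pairs 0.842 and 0.879). In sorted bulk samples fewer cells of a type and less RNA per cell cannot be told apart.

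Promoter sequence was at hand for 7 of the 10 members, in 8 windows of 250 bases before the RefSeq start site (GRCm38.p6). Ctsb, Ctse and Ctsh had none. The windows that hold CACGTG, the E-box core that Tfeb and its relatives are known to bind in lysosomal genes, are shown because they mark which members carry it. The palindrome reads alike on both strands. It was found in Ctsa, Ctsd and Ctsl, and in 6.02% of all 32851 windows of this length. Its extension TCACGTGA, which contains CACGTG, was found in Ctsa and Ctsd and in 0.785% of all windows. Each line gives 30 bases with CACGTG in capitals.
Ctsa, second start site (chr2:164833743-164833772, plus strand): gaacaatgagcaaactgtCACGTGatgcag
Ctsd, -98 from the start site (chr7:142387908-142387937, minus strand): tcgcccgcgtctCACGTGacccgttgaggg
Ctsd, -245 from the start site (chr7:142388048-142388077, minus strand): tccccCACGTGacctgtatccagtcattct
Ctsl (chr13:64370739-64370768, minus strand): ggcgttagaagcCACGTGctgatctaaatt
Ctsk and Ctss are neighbours on chromosome 3, both on the plus strand, with 17423 bases between the end of Ctsk (chr3:95499256-95509362, GRCm38) and the start of Ctss (chr3:95526786-95556403). They are also the members with the lowest and the highest level per length, so their promoters are printed whole. Capitals mark GAGGAA or TTCCTC, the same motif on the other strand, the core bound by PU.1, a factor that macrophages need. One or the other was found in Ctsc, Ctsk and Ctss and in 23.3% of all windows.
Ctsk promoter (chr3:95498960-95499209, plus strand): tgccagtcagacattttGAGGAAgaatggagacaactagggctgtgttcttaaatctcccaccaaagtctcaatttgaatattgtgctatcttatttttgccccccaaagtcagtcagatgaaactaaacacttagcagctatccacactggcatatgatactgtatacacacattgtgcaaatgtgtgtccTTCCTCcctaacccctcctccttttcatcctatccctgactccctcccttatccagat
Ctss promoter (chr3:95526536-95526785, plus strand): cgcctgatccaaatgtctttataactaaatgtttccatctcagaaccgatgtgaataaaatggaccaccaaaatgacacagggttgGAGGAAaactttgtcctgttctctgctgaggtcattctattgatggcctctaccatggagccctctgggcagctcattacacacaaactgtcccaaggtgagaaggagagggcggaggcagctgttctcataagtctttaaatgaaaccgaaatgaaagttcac
The AP-1 motif TGACTCA, on either strand, was in none of the 8 windows and in 4.46% of all. A match is a match of letters only, and says nothing on whether a factor was bound.

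Compared per kilobase of exon, Ctss was the most abundant member, with a median of 2127 CPM per kb over the 21 libraries. Ctsz followed with 653 CPM per kb, then Ctsb with 479, Ctsd with 375 and Ctsc with 367. Ctsh and Ctsa had medians of 223 and 214 CPM per kb. Ctsl was far lower with 19.8, Ctse had 3.75 and Ctsk 0.885 CPM per kb. Summed over the 10 members, cathepsins had their highest group median in Sham KRM, at 15428, 15371, 14645 and 14219 CPM. The sums were 11238, 9365 and 9621 CPM in Sham CD11cloMϕ and 10438, 12472 and 6002 CPM in Sham CD11chiMϕ, so neither group overlapped with Sham KRM. In RAS the 3 populations overlapped, and RAS KRM replicate 1 and RAS CD11cloMϕ replicate 3 exceeded every Sham KRM library, with 16257, 12247 and 13619 CPM in KRM, 10656, 10882, 16012 and 12259 CPM in CD11cloMϕ and 12801, 13791, 9857 and 9429.8 CPM in CD11chiMϕ.

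**Figure D1:**
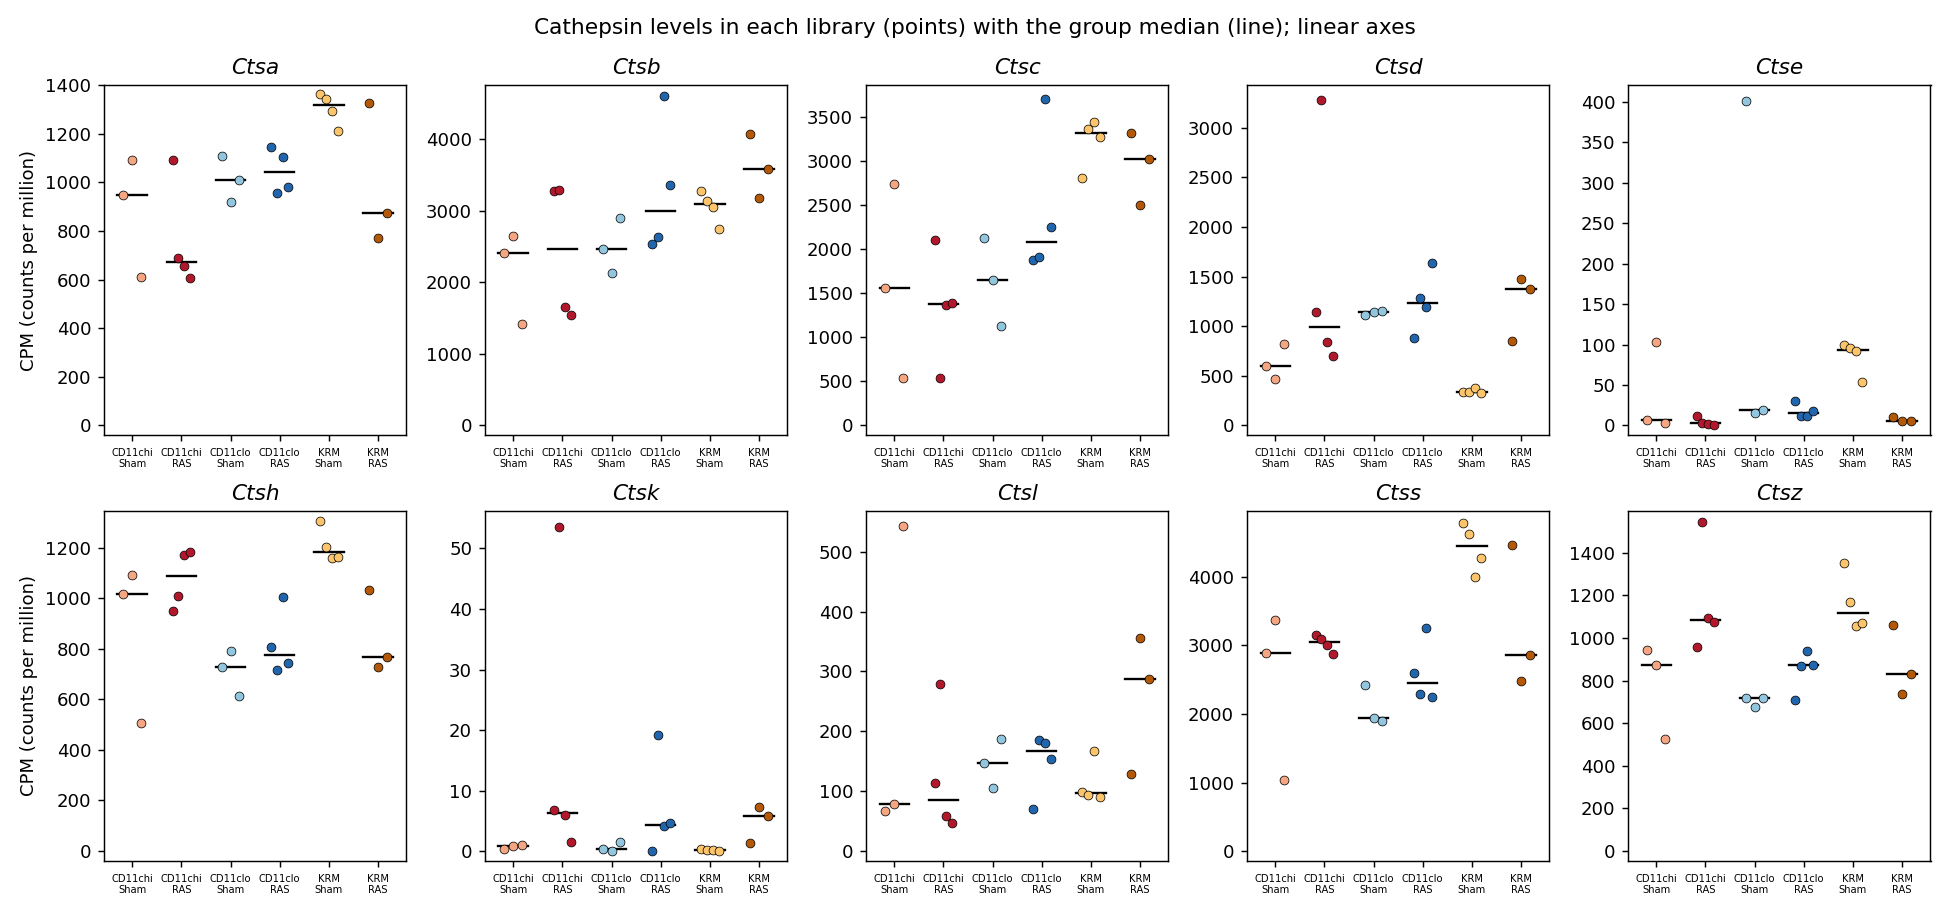
Level of each cathepsin in CPM (linear axis, its own scale for each gene) in the 21 libraries, with a point for each library and a line at the group median. Ctsa, Ctsc, Ctse, Ctsh, Ctss and Ctsz have their highest group median in Sham KRM, and Ctsd and Ctsk their lowest. Ctse is 53.3 to 99.1 CPM in Sham KRM, with a library far above the others in Sham CD11cloMϕ and in Sham CD11chiMϕ. Ctsk is low, with RAS CD11chiMϕ replicate 2 far above the rest.

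Ctss, the endopeptidase that trims the invariant chain in antigen-presenting cells, was highest in Sham KRM, with 4776, 4624, 3996 and 4278 CPM in the 4 libraries. Sham CD11cloMϕ had 2429, 1936 and 1894 CPM. Sham CD11chiMϕ had 2889, 3373 and 1043 CPM. All Sham KRM libraries lay above all Sham libraries of the other populations, and the low value of CD11chiMϕ came from replicate 3, the library rich in proximal tubule markers. In RAS, KRM had 4456, 2487 and 2857 CPM, of which replicate 1 was within the Sham range and the other two below it. The RAS levels were 3147, 3089, 3000.3 and 2878 CPM in CD11chiMϕ and 2603, 2287, 3257 and 2245 CPM in CD11cloMϕ. By median, Sham KRM stood apart from RAS CD11chiMϕ, the next group in order, while every later neighbour in the order overlapped.

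Ctsl, an endopeptidase that overlaps with Ctss in its substrates, was lower and more scattered. Sham KRM had 99.4, 93.6, 168 and 90.1 CPM and RAS KRM 129, 355 and 288 CPM, so that replicates 2 and 3 of RAS lay above all Sham libraries while replicate 1 fell among them. Sham CD11chiMϕ had 66.8, 78.2 and 544 CPM, the last value again from the tubule-rich replicate 3. CD11cloMϕ ranged from 105 to 187 CPM in Sham and from 69.9 to 185 CPM in RAS, with wide overlap. RAS CD11chiMϕ had 113, 279.9, 58.7 and 47.9 CPM. In the order of group medians, from 288 CPM in RAS KRM to 78.2 CPM in Sham CD11chiMϕ, each group overlapped with the next.

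Ctsk was close to the detection limit in Sham. Sham KRM had 0.343, 0.215, 0.215 and 0 CPM, which are 3, 2, 4 and 0 counts, and a count of 0 allows up to 3 counts or 0.313 CPM there. Sham CD11chiMϕ had 0.306, 0.797 and 0.955 CPM and Sham CD11cloMϕ 0.309, 0 and 1.59 CPM. In RAS it reached 1.34, 7.23 and 5.87 CPM in KRM, 6.76, 53.5, 6.03 and 1.54 CPM in CD11chiMϕ and 0.107, 19.3, 4.13 and 4.64 CPM in CD11cloMϕ. The RAS libraries of KRM and of CD11chiMϕ lay above all Sham libraries of their population, and those of CD11cloMϕ did not. Markers of fibroblasts and pericytes, cells in which Ctsk is also known to be expressed, were counted in the same libraries. Their 6 genes summed to 31.2, 34.8, 20.5 and 39.1 CPM in Sham KRM and 48.4, 399 and 485 CPM in RAS KRM. In RAS CD11chiMϕ the sum was highest in replicate 2 (287 CPM), where Ctsk was 53.5 CPM. In RAS CD11cloMϕ it was highest in replicate 2 as well (380.3 CPM), where Ctsk was 19.3 CPM. All 6 markers were counted in each of these RAS libraries except RAS CD11cloMϕ replicate 1, which had 3 of the 6, a sum of 5.02 CPM and Ctsk at 0.107 CPM. Their part in the Ctsk level was not tested.

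**Figure D2:**
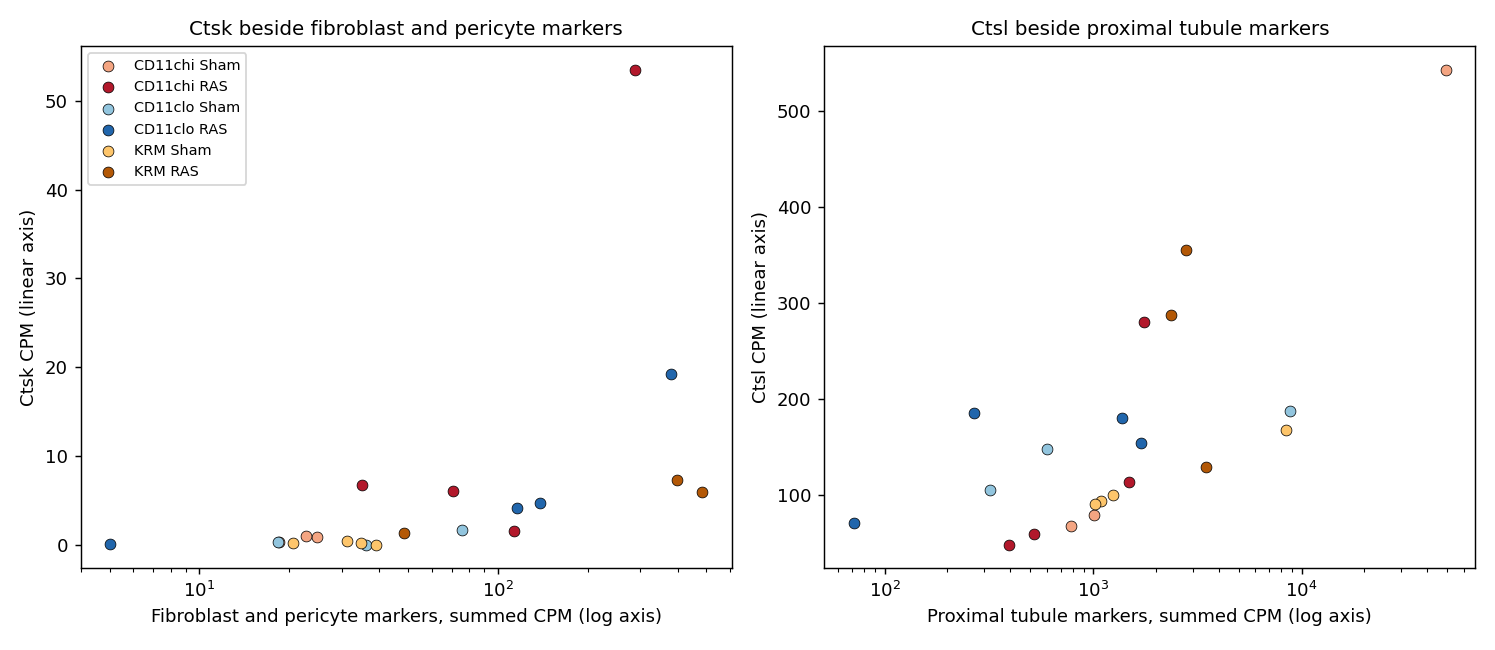
Left, Ctsk in CPM (linear axis) against the summed CPM of 6 fibroblast and pericyte markers (log axis) in each of the 21 libraries, coloured by group. Right, Ctsl in CPM against the summed CPM of 8 proximal tubule markers (log axis), where Sham CD11chiMϕ replicate 3 is the point at 49153 and 544 CPM. The points share their library totals, and no test was made.

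Ctsb, an endopeptidase that also removes dipeptides, had the narrowest range of group medians. They ran from 2406 CPM in Sham CD11chiMϕ to 3588 CPM in RAS KRM, and each group overlapped with its neighbour in that order. RAS CD11chiMϕ split into 3274, 3295, 1657 and 1546 CPM, and RAS CD11cloMϕ held the highest library of all at 4602 CPM.

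Ctsc, the dipeptidyl peptidase that activates granule serine proteases, was high in KRM of both conditions. Sham KRM had 2809, 3373, 3445 and 3282 CPM and RAS KRM 3319, 2500.0 and 3023 CPM. Sham CD11cloMϕ had 2129.8, 1649 and 1124 CPM and RAS CD11cloMϕ 1875, 1916, 3711 and 2253 CPM. CD11chiMϕ spread widely, with 1561, 2741 and 538 CPM in Sham and 2109, 543, 1371 and 1389 CPM in RAS. Sham KRM did not overlap with either of the other Sham populations, although CD11chiMϕ replicate 2 came close to its lowest library.

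Ctsh, an aminopeptidase, and Ctsz, a carboxypeptidase, shared a pattern of high levels in Sham KRM and low levels in Sham CD11cloMϕ. Ctsh had 1306, 1201, 1159.7 and 1163 CPM in Sham KRM, 726, 789 and 613 CPM in Sham CD11cloMϕ and 1015, 1093 and 505 CPM in Sham CD11chiMϕ. In RAS KRM it had 1032, 729.6 and 769 CPM, all below the Sham KRM libraries. Ctsz had 1352, 1168, 1058 and 1070.3 CPM in Sham KRM, 716, 678 and 719.8 CPM in Sham CD11cloMϕ and 946, 872 and 524 CPM in Sham CD11chiMϕ. RAS KRM had 1063, 735 and 833 CPM, of which replicate 1 reached the Sham range and the other two lay below. In CD11chiMϕ all 4 RAS libraries, at 958, 1546, 1095 and 1075 CPM, lay above the 3 Sham libraries. RAS CD11cloMϕ ranged from 716 to 1004 CPM for Ctsh and from 711 to 941 CPM for Ctsz.

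Ctsd, the main aspartic protease of lysosomes, showed the reverse order of populations. It was lowest in Sham KRM, with 342, 338, 374 and 330.0 CPM. Sham CD11cloMϕ had 1109, 1141 and 1153 CPM and Sham CD11chiMϕ 599, 465 and 821 CPM, so the 3 Sham groups did not overlap at all. RAS KRM had 852, 1476 and 1375 CPM, each above every Sham KRM library, with replicate 1 the lowest. RAS CD11cloMϕ had 882, 1280.4, 1196 and 1633 CPM and RAS CD11chiMϕ 1141, 3284, 839.9 and 702 CPM. All RAS groups and Sham CD11cloMϕ overlapped with their neighbours in the order of medians, and Sham KRM alone stood apart at the bottom. Within the counts of the 10 cathepsins, Ctsd made up 2.20% to 2.55% in Sham KRM and 5.24% to 12.1% in RAS KRM. Its share was 9.86% to 12.2% in Sham CD11cloMϕ. RAS CD11chiMϕ replicate 2 had the largest share, 23.8%.

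**Figure D3:**
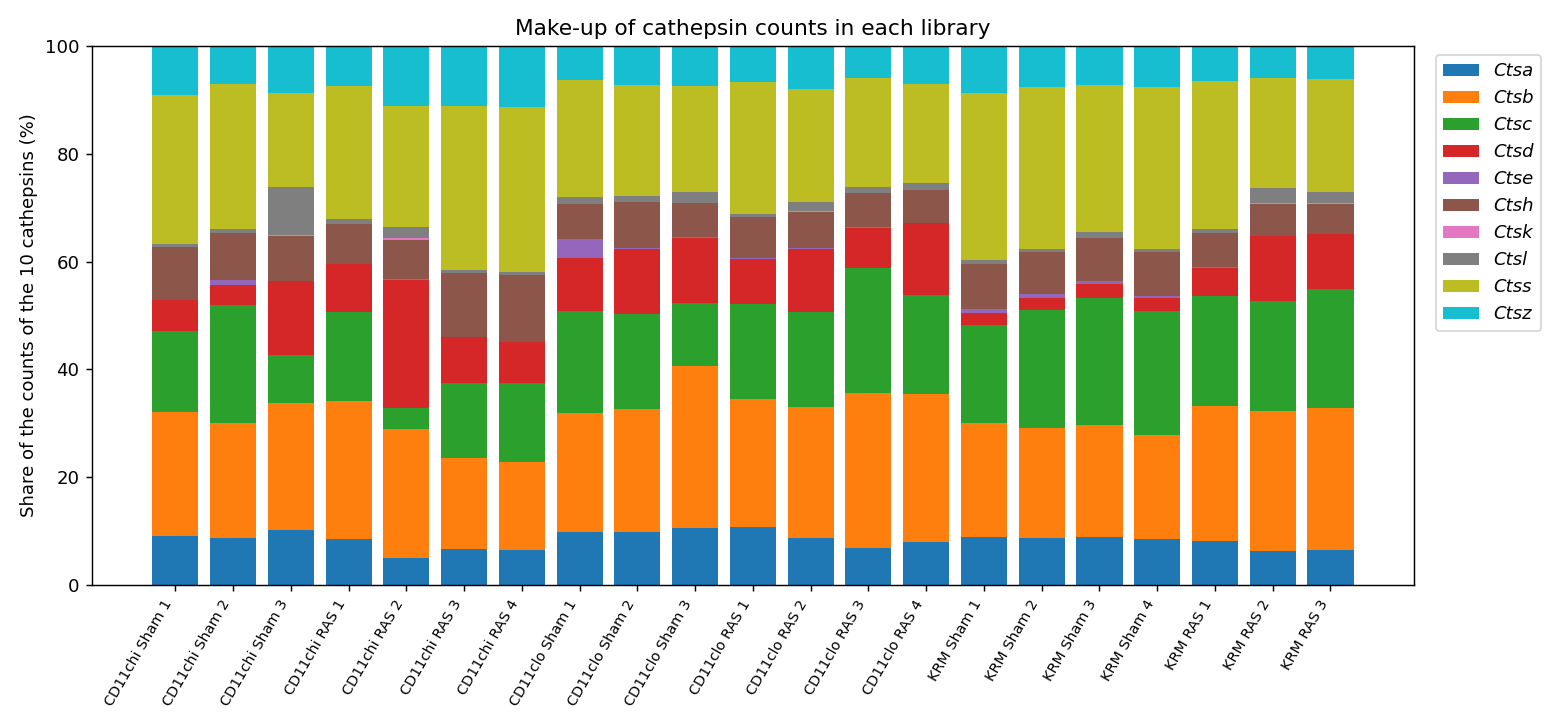
Share of the counts of the 10 cathepsins that each gene took in every library, in percent of counts and not per length. The Ctsd segment is 2.20% to 2.55% in the 4 Sham KRM libraries and 23.8% in RAS CD11chiMϕ replicate 2, the highest of all.

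Ctse, the second aspartic protease, known from endosomes of immune cells and from stomach, had the widest range of group medians among the members, 5.19 on the log2 scale of CPM. Sham KRM had 99.1, 95.6, 92.1 and 53.3 CPM and RAS KRM 9.93, 5.22 and 5.25 CPM, with no overlap. Sham CD11cloMϕ had 401, 15.3 and 18.8 CPM and Sham CD11chiMϕ 6.42, 103 and 3.22 CPM, so in each of these groups a single library was far above the other two. RAS CD11cloMϕ had 29.7, 11.9, 11.6 and 18.5 CPM and RAS CD11chiMϕ 11.8, 3.34, 1.88 and 0.719 CPM.

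Ctsa, the serine carboxypeptidase that also protects β-galactosidase and neuraminidase in the lysosome, had 1364, 1345, 1294 and 1212 CPM in Sham KRM, above every Sham library of CD11cloMϕ (918 to 1109 CPM) and of CD11chiMϕ (609 to 1094 CPM). RAS KRM had 1327, 771 and 876 CPM, with replicate 1 in the Sham range and the other two below it. RAS CD11cloMϕ ranged from 957 to 1145 CPM and RAS CD11chiMϕ from 606 to 1092 CPM, and these groups overlapped with their Sham counterparts.

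In Sham kidneys, KRM differed from CD11cloMϕ in 5 of the 9 cathepsins tested. Ctss, Ctsc, Ctsh and Ctsz were higher in KRM, by 2.09-, 1.93-, 1.68- and 1.63-fold, and Ctsd was 3.32-fold lower. Across all genes 41.8% of 12399 passed the same test, edgeR's quasi-likelihood test with Benjamini-Hochberg adjustment over all genes at 0.05. Called higher were 19.5% of all genes and lower 22.3%. Ctss averaged 4418 ± 351 CPM (SD, n = 4) against 2086 ± 297 CPM (SD, n = 3) (log2 fold change 1.06 ± 0.17 SE, adjusted p = 0.00168). Ctsd averaged 346 ± 19.3 CPM (SD, n = 4) against 1134 ± 22.7 CPM (SD, n = 3) (log2 fold change -1.73 ± 0.11 SE, adjusted p = 1.12e-05). For Ctsc, Ctsh and Ctsz the adjusted p-values were 0.0119, 0.00567 and 0.00634. In 1 fit over all 6 groups Ctsc was not called (adjusted p = 0.124), and the other 4 were, where 23.8% of all genes were. With Ctsa, 6 of 9 members had an unadjusted p under 0.05, as did 49.7% of all genes. Ctsa lay above CD11cloMϕ in all 4 KRM libraries but missed the adjusted threshold (log2 fold change 0.35 ± 0.13 SE, adjusted p = 0.068). DESeq2 called 6 members, Ctsa among them, and limma 7, with Ctsa and Ctsb, and Ctsa was also called with total library size and with the filter of 10 counts in every library. Ctsb and Ctsl had log2 fold changes of 0.27 (95% interval -0.07 to 0.62) and -0.39 (-0.97 to 0.18). For Ctse the interval ran from -3.13 to 1.48, with Sham CD11cloMϕ replicate 1 at 401 CPM. Without that library Ctse was higher in KRM (log2 fold change 2.34 ± 0.30 SE, adjusted p = 0.00135), and the count of members called became 7 where 33.2% of all genes were. Without Sham KRM replicate 3, Ctsl was called as well, lower in KRM (log2 fold change -0.62, adjusted p = 0.0447), where 36.3% of all genes were. Ctsk did not pass the filter on low counts. Of the 9, 6 did not overlap between the groups, as did 49.3% of all genes. Monocyte markers summed to 3939 to 12337 CPM in CD11cloMϕ and 529 to 847 CPM in KRM, and their part was not tested. The median log2 fold change of the 9 was 0.35, against -0.04 over all genes.

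Against CD11chiMϕ, most members were separated by library in Sham KRM, but none passed the test. Ctsa, Ctsb, Ctsc, Ctsh, Ctss and Ctsz were higher and Ctsd lower in every KRM library, so 7 of 9 members did not overlap, against 23.9% of all genes. By edgeR 0 of 9 members were called (all genes 5.12%), 2 had an unadjusted p under 0.05 (Ctsa and Ctsd, all genes 24.4%), DESeq2 called 2 (Ctsa and Ctsd) and limma 0. Ctss had a log2 fold change of 0.86 ± 0.37 SE (adjusted p = 0.207) and Ctsd of -0.94 ± 0.27 SE (adjusted p = 0.0953). Without CD11chiMϕ replicate 3, the tubule-rich library, Ctsd (log2 fold change -0.59 ± 0.15 SE, adjusted p = 0.0387) and Ctss (log2 fold change 0.54 ± 0.14 SE, adjusted p = 0.0452) passed, 2 of the members where 13.6% of all genes did. Without CD11chiMϕ replicate 2, whose Ctse was 103 CPM, Ctse (log2 fold change 4.07 ± 0.43 SE, adjusted p = 0.0121) and Ctsd passed, 2 of the members against 6.95% of all genes.

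Between the Sham monocyte-derived populations, Ctsd was the only member whose libraries did not overlap, being lower in CD11chiMϕ (log2 fold change -0.73 ± 0.36 SE, adjusted p = 0.366), where 25.9% of all genes did not overlap. By edgeR 0 of 9 members were called (all genes 1.52%), 0 had an unadjusted p under 0.05 (all genes 17.7%), and DESeq2 and limma called 0. Without CD11chiMϕ replicate 3 Ctsd passed (log2 fold change -1.14 ± 0.20 SE, adjusted p = 0.0349), where 5.70% of all genes did. Without replicate 3 of every Sham population, an alternative chosen after the data were seen, Ctsd (log2 fold change -1.14 ± 0.21 SE, adjusted p = 0.0114) and Ctsl (log2 fold change -0.87 ± 0.21 SE, adjusted p = 0.0305) were called, where 15.7% of all genes were. Ctsl thereby turned from a log2 fold change of 0.89, which had not passed, to lower in CD11chiMϕ.

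In RAS kidneys no member passed the adjusted test in any contrast between populations. KRM against CD11chiMϕ gave 0 of 10 members called by edgeR (all genes 9.23%), 1 with an unadjusted p under 0.05 (Ctsc, all genes 29.8%), and 0 by DESeq2 and limma. Ctsc was the only member without overlap, with a higher level in KRM (log2 fold change 0.92 ± 0.39 SE, adjusted p = 0.16), where 25.7% of all genes did not overlap. KRM against CD11cloMϕ gave 0 of 10 (all genes 9.17%), 1 with an unadjusted p under 0.05 (all genes 32.9%), 1 by DESeq2 and 0 by limma. That member was Ctse, lower in all 3 KRM libraries (log2 fold change -1.59 ± 0.41 SE, adjusted p = 0.0527), where 30.5% of all genes did not overlap. Ctse was called without RAS KRM replicate 1 (log2 fold change -1.96, adjusted p = 0.0248), where 23.0% of all genes were, and without RAS CD11cloMϕ replicate 3, where 16.2% were. CD11chiMϕ against CD11cloMϕ gave 0 of 10 (all genes 8.27%), 1 with an unadjusted p under 0.05 (Ctse, log2 fold change -2.08 ± 0.65 SE, adjusted p = 0.0791, all genes 25.8%), 2 by DESeq2 (Ctsa and Ctse) and 1 by limma (Ctse). Without RAS CD11chiMϕ replicate 1 Ctse was called (log2 fold change -3.04, adjusted p = 0.00832), where 17.3% of all genes were. Ctsz did not overlap and had a higher level in CD11chiMϕ (log2 fold change 0.52 ± 0.28 SE, adjusted p = 0.273), where 15.6% of all genes did not overlap. For Ctsd, which had separated the Sham populations, the log2 fold changes in RAS were -0.53 ± 0.58 SE for KRM over CD11chiMϕ (0.28 without RAS CD11chiMϕ replicate 2, which turned the direction) and -0.24 ± 0.33 SE for KRM over CD11cloMϕ.

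**Figure D4:**
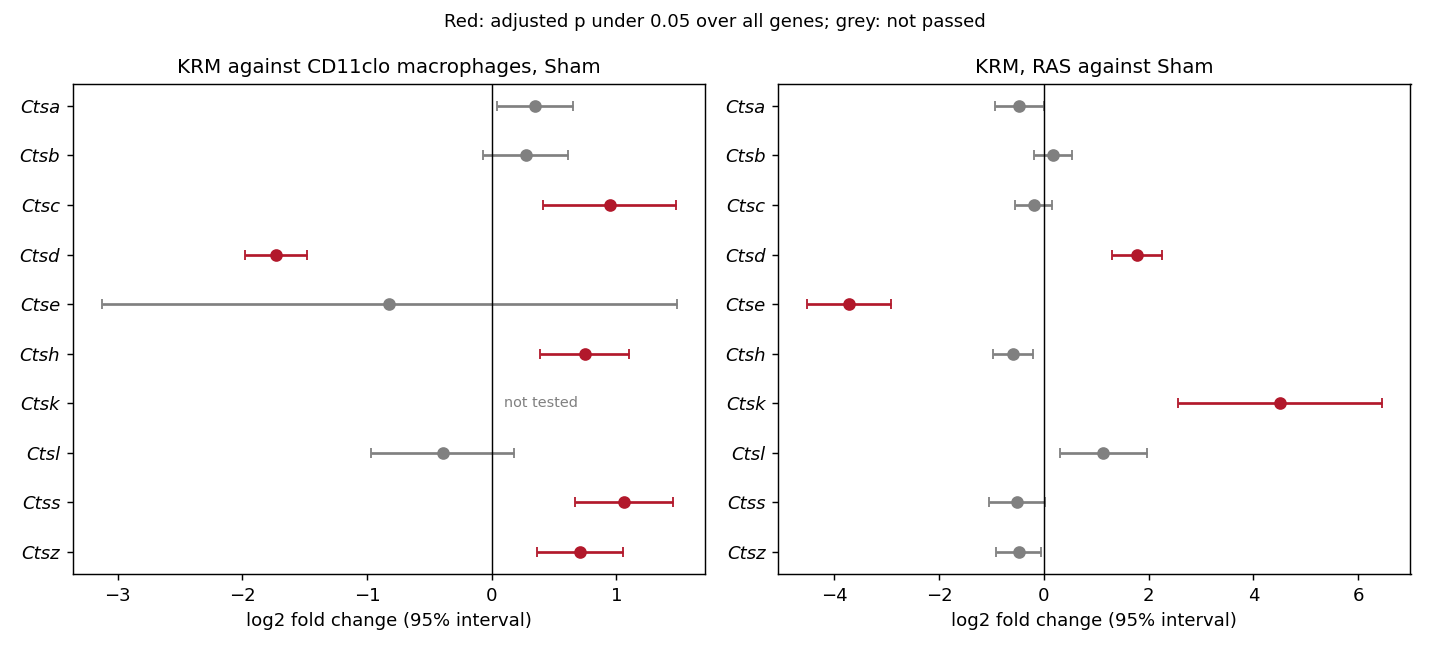
Log2 fold change of each cathepsin with its 95% interval, for Sham KRM over Sham CD11cloMϕ (left) and RAS KRM over Sham KRM (right), red where the adjusted p was under 0.05 over all genes. The panels share the 4 Sham KRM libraries, so the 2 values of a gene, such as -1.73 and 1.77 for Ctsd, are not independent.

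RAS against Sham in KRM changed 3 of 10 cathepsins, where 9.70% of 12852 genes passed, 7.77% higher and 1.94% lower. Ctsd rose 3.41-fold, from 346 ± 19.3 CPM (SD, n = 4) to 1234 ± 335 CPM (SD, n = 3) (log2 fold change 1.77 ± 0.21 SE, adjusted p = 0.0117). Ctsk rose from 0.193 ± 0.142 CPM (SD, n = 4) to 4.81 ± 3.08 CPM (SD, n = 3) (log2 fold change 4.50 ± 0.84 SE, adjusted p = 0.027), a fitted value whose size depends on the prior count, since Sham KRM held 9 counts in all. Ctse fell 13.2-fold, from 85.0 ± 21.3 CPM (SD, n = 4) to 6.80 ± 2.71 CPM (SD, n = 3) (log2 fold change -3.72 ± 0.34 SE, adjusted p = 0.00592). Ctsh was lower in all 3 RAS libraries without passing (log2 fold change -0.59 ± 0.17 SE, adjusted p = 0.0614), and Ctsl was at 1.13 ± 0.36 SE (adjusted p = 0.0765). Ctsa, Ctss and Ctsz had log2 fold changes of -0.47, -0.51 and -0.48 with adjusted p-values of 0.148, 0.156 and 0.12. Ctsb and Ctsc had log2 fold changes of 0.17 (95% interval -0.19 to 0.54) and -0.19 (-0.54 to 0.16). In all, 6 of 10 had an unadjusted p under 0.05, as did 34.0% of all genes. Of the 10, 4 did not overlap (Ctsd, Ctsk, Ctse and Ctsh), as did 25.3% of all genes.

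These counts rested on which libraries were in the fit. Without RAS KRM replicate 1, the library whose T and NK markers were high and whose distal nephron markers were low, 8 of 10 members were called where 50.2% of all genes were. Ctsd (log2 fold change 1.94 ± 0.11 SE, adjusted p = 1.64e-05), Ctse (log2 fold change -4.12 ± 0.32 SE, adjusted p = 8.43e-05) and Ctsk (log2 fold change 4.90 ± 0.62 SE, adjusted p = 0.000651) were among the 8. Ctsl also rose (log2 fold change 1.41 ± 0.24 SE, adjusted p = 0.00223). Ctsh fell by 0.79, Ctss by 0.83, Ctsa by 0.76 and Ctsz by 0.67 on the log2 scale, with adjusted p-values of 0.00219, 0.00364, 0.00273 and 0.0126. Ctsb and Ctsc were not called. The deposited log2 table holds other values under the label of this library, and which of the tables holds the right one is not known. In 1 fit over all 6 groups Ctsd alone was called and Ctse was not (log2 fold change -3.82 ± 1.22 SE, adjusted p = 0.0611), where 7.85% of all genes were. Without RAS KRM replicate 2 or 3, or without Sham KRM replicate 1, 2 or 4, only Ctse was called, and 0.204% to 0.338% of all genes were. Ctsd then had adjusted p-values of 0.0511 to 0.0629 with log2 fold changes of 1.61 to 1.80, and Ctsk of 0.0687 to 0.1 with 4.09 to 4.86. In RAS KRM, markers of other cells moved with the condition. Relative to Sham, all 5 T and NK cell markers, 2 of 4 distal nephron markers tested, 2 of 3 endothelial and 4 of 5 fibroblast and pericyte markers tested were called higher, and 1 of 8 macrophage markers was called lower. Of 5 dendritic cell markers 2 were higher and 1 lower, of 6 monocyte markers 1 was higher and 1 lower, and 0 of the neutrophil, B and plasma cell and proximal tubule markers were called by edgeR. The summed macrophage markers were 9810.2 to 10650.0 CPM in Sham and 5459 to 9051 CPM in RAS KRM, and the distal nephron markers 4.18 to 172 CPM in Sham and 106 to 4151 CPM in RAS. The part of these cells, which the CD45 and lineage gates were set to leave out except for macrophages, dendritic cells and monocytes, was not tested in the cathepsin levels.

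In CD11chiMϕ and CD11cloMϕ, RAS against Sham called 0 of 10 members by edgeR, as it called 0% and 0% of all genes. In CD11chiMϕ, 2 members had an unadjusted p under 0.05 (Ctse and Ctsk, all genes 9.79%), DESeq2 called 1 (Ctsk) and limma 0. Ctse had a log2 fold change of -3.04, and of -0.24 without Sham replicate 2. Ctsk and Ctsz did not overlap, against 6.60% of all genes, and were higher in RAS (log2 fold changes 4.65 ± 1.33 SE and 0.66 ± 0.35 SE, adjusted p = 0.508 and 0.533). Without RAS replicate 2, at 53.5 CPM, Ctsk had a log2 fold change of 2.73 ± 0.77 SE. Ctsd had a log2 fold change of 1.26 with a 95% interval of -0.18 to 2.70, where replicate 2 reached 3284 CPM and the other three lay between 702 and 1141 CPM. In CD11cloMϕ, 1 member had an unadjusted p under 0.05 (Ctse, log2 fold change -2.95 ± 1.07 SE, adjusted p = 0.553, all genes 8.96%), and DESeq2 and limma called 0. Without Sham CD11cloMϕ replicate 1, at 401 CPM, Ctse turned to a log2 fold change of 0.11. No member was without overlap there, against 8.53% of all genes. Ctsd in CD11cloMϕ had a log2 fold change of 0.22 (95% interval -0.34 to 0.78).

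**Figure D5:**
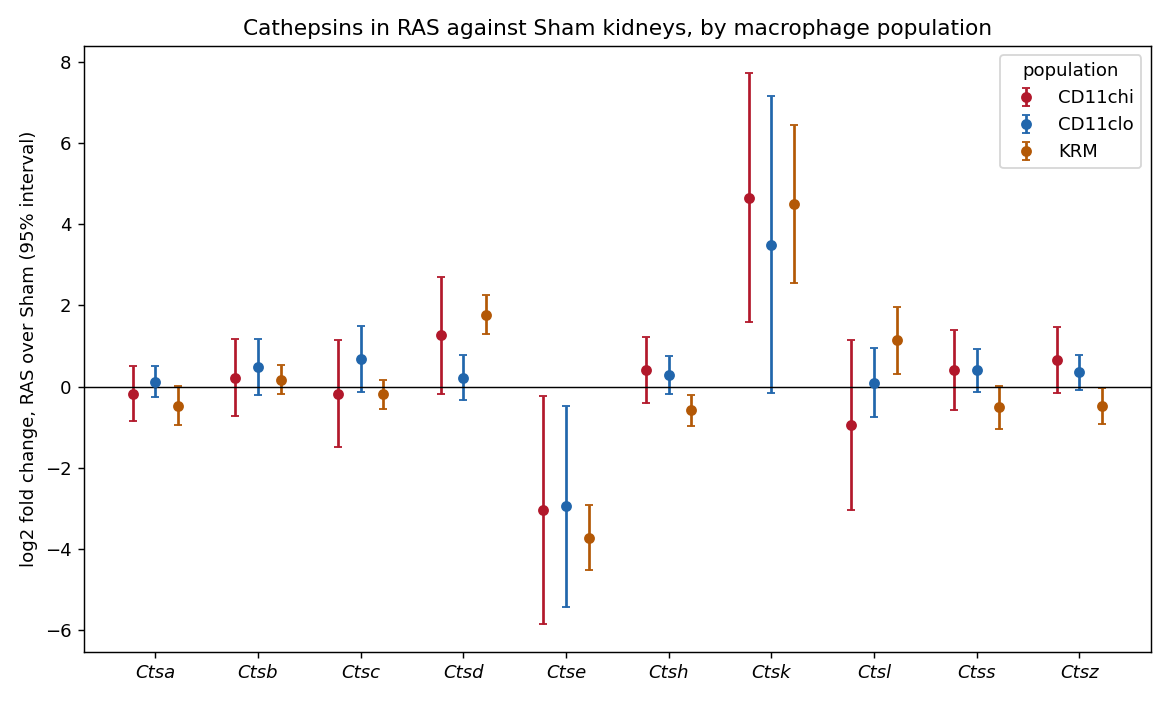
Log2 fold change of RAS over Sham with its 95% interval for each cathepsin in the 3 populations. The interval of Ctsk is the widest in each population and that of Ctse the next widest in CD11chiMϕ and CD11cloMϕ. Ctsk lies above and Ctse below 0 in all 3 populations with every library in, but without 1 Sham library Ctse is at 0.11 in CD11cloMϕ and at -0.24 in CD11chiMϕ, and only the KRM values of Ctsd (1.77), Ctsk (4.50) and Ctse (-3.72) passed the adjusted threshold.

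Whether the response to RAS differed between populations was tested directly. KRM minus CD11cloMϕ gave 0 of 10 members by edgeR (all genes 0.245%), 5 with an unadjusted p under 0.05 (all genes 23.7%), 4 by DESeq2 and 3 by limma. Ctsd had the most positive of these differences, with a response higher in KRM by 1.49 ± 0.33 SE on the log2 scale (adjusted p = 0.067). Ctsh, Ctsz, Ctss and Ctsa had differences of -0.92, -0.88, -0.95 and -0.64, with adjusted p-values of 0.101, 0.101, 0.133 and 0.181. Without RAS KRM replicate 1 these 5 were called, with Ctsd at 1.68 ± 0.29 SE (adjusted p = 0.0052), where 16.1% of all genes were. Without RAS CD11cloMϕ replicate 1, Ctsd alone was called (log2 fold change 1.33 ± 0.29 SE, adjusted p = 0.0474), where 1.31% of all genes were. KRM minus CD11chiMϕ gave 0 of 10 (all genes 0%), 2 with an unadjusted p under 0.05 (all genes 21.2%) and 2 by DESeq2 (Ctsh -1.05 and Ctsz -1.20), and 0 by limma. CD11chiMϕ minus CD11cloMϕ gave 0 of 10 (all genes 0%), 0 by unadjusted p (all genes 6.65%), and 0 by DESeq2 and limma. For Ctsk and Ctse the differences between populations had 95% intervals of several log2 units, such as -3.46 to 1.95 for Ctse in KRM minus CD11cloMϕ.

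Of the 13 other cathepsin genes, 9 had no count in any library, and Ctsg had a mean under 1 CPM in every group. Ctsf and Ctso, cysteine proteases of broad expression, were higher in Sham KRM than in Sham CD11cloMϕ, with Ctsf at 72.4, 53.9, 64.7 and 47.1 CPM against 8.04, 4.67 and 26.9 CPM (log2 fold change 2.19 ± 0.52 SE, adjusted p = 0.0108) and Ctso at 83.1 ± 10.5 and 57.9 ± 5.43 CPM (log2 fold change 0.50 ± 0.12 SE, adjusted p = 0.0132). These were 2 of the 2 tested, where 19.5% of all genes were called higher. Ctso lost its call without Sham CD11cloMϕ replicate 2 (adjusted p = 0.0578). Ctsf was also higher in RAS KRM than in RAS CD11chiMϕ (log2 fold change 1.93 ± 0.42 SE, adjusted p = 0.0372), a call lost without RAS CD11chiMϕ replicate 2, 3 or 4 or RAS KRM replicate 2 or 3 (adjusted p up to 0.147). Ctsw, which is known from NK and cytotoxic T cells, rose in RAS KRM (log2 fold change 5.36 ± 0.92 SE, adjusted p = 0.0243), 1 of 3 tested where 7.77% of all genes were called higher, and ranged there from 5.04 to 55.4 CPM, highest in replicate 1. Without that library its log2 fold change was 3.55 ± 0.47 SE (adjusted p = 0.000758), where 50.2% of all genes were called. Its call was lost without Sham KRM replicate 1, 2 or 4 or RAS KRM replicate 2 or 3 (adjusted p up to 0.0949). Ctsw was higher in RAS CD11chiMϕ than in RAS CD11cloMϕ (log2 fold change 2.89 ± 0.63 SE, adjusted p = 0.0256), which was lost without RAS CD11chiMϕ replicate 2 or RAS CD11cloMϕ replicate 2, 3 or 4 (adjusted p up to 0.0888). The T and NK marker sums in RAS were 181, 82.7, 35.6 and 39.6 CPM in CD11chiMϕ and 20.9, 6.35, 8.76 and 13.2 CPM in CD11cloMϕ.

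Of 11 cathepsin inhibitors of the cystatin, stefin and Ctla2 groups, 4 were tested between Sham KRM and Sham CD11cloMϕ, and 2 were higher and 2 lower in KRM, where 41.8% of all genes were called. Cst3, the secreted cystatin C, was higher (log2 fold change 1.48 ± 0.18 SE, adjusted p = 0.00035), as was Ctla2b (log2 fold change 1.89 ± 0.43 SE, adjusted p = 0.00872). Cst7, cystatin F, which acts on Ctsc, was lower (log2 fold change -6.77 ± 0.39 SE, adjusted p = 8.04e-06). Cstb, the cytosolic cystatin B, was lower too (log2 fold change -1.30 ± 0.17 SE, adjusted p = 0.000566). In RAS against Sham KRM, 2 of 5 tested were called, where 9.70% of all genes were, both higher: Ctla2a (log2 fold change 5.84 ± 0.82 SE, adjusted p = 0.0163) and Cst7 (log2 fold change 4.86 ± 0.85 SE, adjusted p = 0.025), the latter from 0.135 ± 0.0534 to 4.76 ± 5.25 CPM. The 3 RAS KRM libraries had 10.8, 1.81 and 1.65 CPM of Cst7, most in replicate 1. Without that library the log2 fold change of Cst7 was 3.38 ± 0.54 SE (adjusted p = 0.00176) and that of Ctla2a 5.29 ± 0.75 SE (adjusted p = 0.00104), and 3 inhibitors were called higher and 1 lower, where 50.2% of all genes were called. The T and NK marker sums were 1.67 to 2.29 CPM in Sham KRM and 259.5, 28.6 and 27.4 CPM in RAS KRM, with all 5 markers called higher, and the part of these cells, which the sort was set to discard, was not tested. Both calls were lost without Sham KRM replicate 1, 2 or 4 or RAS KRM replicate 2 or 3 (adjusted p up to 0.0926 for Cst7 and 0.0667 for Ctla2a). Cst7 was lower in Sham KRM than in Sham CD11chiMϕ (log2 fold change -4.31 ± 0.45 SE, adjusted p = 0.00519), and lower in Sham CD11chiMϕ than in Sham CD11cloMϕ (log2 fold change -2.42 ± 0.36 SE, adjusted p = 0.0401). In RAS, Cst3 was higher in CD11chiMϕ than in CD11cloMϕ (log2 fold change 1.60 ± 0.42 SE, adjusted p = 0.0448), where 4 of 5 dendritic cell markers were also called higher, with sums of 1037 to 3935 against 84.2 to 344 CPM, and their part was not tested. Stfa2l1 was lower in KRM than in CD11cloMϕ (log2 fold change -6.14 ± 1.33 SE, adjusted p = 0.0385). Stfa2l1 lost its call without RAS CD11cloMϕ replicate 2, 3 or 4 or RAS KRM replicate 2 or 3 (adjusted p up to 0.149). Of the neutrophil markers 4 of 4 tested were called lower there too, with sums of 0.618 to 6.58 against 482 to 1989 CPM, and the part of neutrophils was not tested. The Cst3 call in RAS was lost without RAS CD11chiMϕ replicate 2, 3 or 4 or RAS CD11cloMϕ replicate 1, 2 or 4 (adjusted p up to 0.139). Between the Sham monocyte-derived populations Cst7 lost its call without Sham CD11chiMϕ replicate 1 or 2 or Sham CD11cloMϕ replicate 1, 2 or 3 (adjusted p up to 0.261). Stefin genes lie in a cluster of near-identical copies, so the Stfa2l1 value is uncertain. The lower group of Cst7, Ctla2a and Stfa2l1 in the KRM contrasts averaged under 1 CPM, so the size of their fitted fold changes depends on the prior count.

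Among 17 genes that process, deliver or partner cathepsins, 3 were higher and 2 lower in Sham KRM than in Sham CD11cloMϕ, where 41.8% of all genes were called. Lgmn, the asparaginyl endopeptidase that matures several cathepsins, was higher (log2 fold change 1.71 ± 0.23 SE, adjusted p = 0.000655), with Gnptg, a subunit of the mannose 6-phosphate transferase (log2 fold change 0.65 ± 0.16 SE, adjusted p = 0.0134), and Tfe3, a lysosomal transcription factor (log2 fold change 0.37 ± 0.10 SE, adjusted p = 0.0228). Sort1, a receptor that delivers lysosomal proteins, was lower (log2 fold change -2.80 ± 0.23 SE, adjusted p = 4.53e-05), as was the membrane protein Lamp1 (log2 fold change -0.52 ± 0.12 SE, adjusted p = 0.00833). In RAS against Sham KRM 0 of the 17 were called by edgeR, where 9.70% of all genes were, and 4 had an unadjusted p under 0.05, where 34.0% did. The count was 1 higher and 6 lower without RAS KRM replicate 1, where 50.2% of all genes were called. In RAS, CD11chiMϕ were lower than CD11cloMϕ in 3 of 17, where 8.27% of all genes were called: Sort1, Neu1, the neuraminidase that Ctsa protects, and Lamp1, with log2 fold changes of -1.69, -1.05 and -0.82. In the other contrasts between 2 groups 0 of the 17 were called by edgeR, where 0% to 9.23% of all genes were, with 0 to 3 at an unadjusted p under 0.05, where 8.96% to 32.9% were. Without Sham CD11chiMϕ replicate 3, 4 were called between Sham KRM and Sham CD11chiMϕ (all genes 13.6%) and 1 between Sham CD11chiMϕ and Sham CD11cloMϕ (all genes 5.70%). Without RAS KRM replicate 1, 1 was called between RAS KRM and RAS CD11chiMϕ (all genes 19.6%) and 3 between RAS KRM and RAS CD11cloMϕ (all genes 23.0%). Gnptg lost its call without Sham CD11cloMϕ replicate 2 (adjusted p = 0.0521) and Tfe3 without Sham CD11cloMϕ replicate 2 or 3 or Sham KRM replicate 2 (adjusted p up to 0.0615). In RAS the call of Sort1 was lost without RAS CD11chiMϕ replicate 2, 3 or 4 or RAS CD11cloMϕ replicate 1, 2 or 4 and that of Neu1 without RAS CD11chiMϕ replicate 3 or 4 or RAS CD11cloMϕ replicate 2 or 4, and that of Lamp1 was kept only without RAS CD11chiMϕ replicate 1, with adjusted p up to 0.109, 0.0776 and 0.144.

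Of 5 granule proteases that Ctsc activates (Elane, Prtn3, Ctsg, Gzma and Gzmb), 1 was tested between Sham KRM and Sham CD11cloMϕ, Prtn3, and it was lower in KRM (0.114, 0, 0 and 0.104 CPM against 16.9, 8.05 and 2.05 CPM, log2 fold change -7.34 ± 1.06 SE, adjusted p = 0.000946). Neutrophil markers, of which 4 of 4 tested were called lower in KRM, summed to 3.07 to 5.69 CPM in KRM and 211 to 1091 CPM in CD11cloMϕ. Prtn3 was also lower in RAS CD11chiMϕ than in RAS CD11cloMϕ (log2 fold change -4.16 ± 0.81 SE, adjusted p = 0.0176), where 4 of 4 neutrophil markers tested were called lower and their sums were 4.21 to 137 and 482 to 1989 CPM. The part of neutrophils, which the sort was set to discard, was not tested. In RAS the call of Prtn3 was lost without RAS CD11chiMϕ replicate 3 or 4 or RAS CD11cloMϕ replicate 2 (adjusted p up to 0.0679). Gzma, a protease of cytotoxic lymphocytes, rose in RAS KRM (log2 fold change 5.45 ± 1.29 SE, adjusted p = 0.0419), 1 of 2 tested where 7.77% of all genes were called higher, and its CPM there was 18.3 ± 28.0. In those libraries the T and NK marker sums were 259.5, 28.6 and 27.4 CPM, and their part was not tested. The log2 fold change of Gzma was 2.32 ± 0.59 SE (adjusted p = 0.0134) without RAS KRM replicate 1, and its call was lost without Sham KRM replicate 1, 2, 3 or 4 or RAS KRM replicate 2 or 3 (adjusted p up to 0.124). Called higher were 2 of the 2 proteases tested without RAS KRM replicate 1, where 50.2% of all genes were called, and 0 of 2 without Sham KRM replicate 3. Of 6 genes of MHC class II processing, 5 were higher and 1 lower in Sham KRM than in Sham CD11cloMϕ, where 19.5% of all genes were higher and 22.3% lower. Cd74, the invariant chain that Ctss cuts, was higher (log2 fold change 3.26 ± 0.25 SE, adjusted p = 3.56e-05), as were H2-DMb1 (log2 fold change 2.29 ± 0.18 SE, adjusted p = 4.13e-05) and the class II activator Ciita (log2 fold change 2.27 ± 0.20 SE, adjusted p = 5.92e-05). Ifi30, a lysosomal thiol reductase, was lower (log2 fold change -1.09 ± 0.21 SE, adjusted p = 0.00388). In RAS against Sham KRM 0 of the 6 were called by edgeR, where 9.70% of all genes were, with 3 at an unadjusted p under 0.05, where 34.0% were. The count was 1 higher and 4 lower without RAS KRM replicate 1, where 50.2% of all genes were called. H2-DMb2 was lower in KRM than in CD11chiMϕ in Sham (log2 fold change -2.46) and in RAS (-4.52), where Ifi30 was lower too (-2.68), and it was higher in CD11chiMϕ than in CD11cloMϕ in Sham (3.76) and in RAS (5.39). Ifi30 was lower in RAS KRM than in RAS CD11cloMϕ (-1.12) and higher in RAS CD11chiMϕ than in RAS CD11cloMϕ (1.57). Dendritic cell markers summed to 301 to 1715 CPM in Sham CD11chiMϕ, against 77.5 to 102 CPM in Sham KRM and 50.9 to 151 CPM in Sham CD11cloMϕ. In RAS they summed to 1037 to 3935 CPM in CD11chiMϕ, against 113 to 172 CPM in KRM and 84.2 to 344 CPM in CD11cloMϕ, and their part in the H2-DMb2 and Ifi30 levels was not tested. H2-DMb2 kept its call between RAS CD11chiMϕ and RAS CD11cloMϕ whichever library was left out. It lost the call between Sham KRM and Sham CD11chiMϕ without Sham CD11chiMϕ replicate 1 or Sham KRM replicate 1, 2, 3 or 4 (adjusted p up to 0.0895). Between Sham CD11chiMϕ and Sham CD11cloMϕ it kept the call only without CD11chiMϕ replicate 3 (adjusted p otherwise up to 0.285). Without that library 5 of the 6 genes were called higher in Sham CD11chiMϕ (all genes 5.70%), against 1 with it (all genes 1.52%). Between Sham KRM and Sham CD11chiMϕ 2 were then called, both lower in KRM (all genes 13.6%). In RAS KRM against RAS CD11chiMϕ H2-DMb2 lost the call without RAS CD11chiMϕ replicate 3 or 4 or RAS KRM replicate 2 or 3 (adjusted p up to 0.119). Ifi30 lost its calls without RAS CD11chiMϕ replicate 2, 3 or 4 or RAS KRM replicate 2 or 3 for KRM against CD11chiMϕ, without RAS CD11cloMϕ replicate 1, 2 or 4 or RAS KRM replicate 2 or 3 for KRM against CD11cloMϕ, and kept that for CD11chiMϕ against CD11cloMϕ only without RAS CD11chiMϕ replicate 1, with adjusted p up to 0.134, 0.148 and 0.121. H2-DMb1 and H2-DMb2 are close copies, so reads may be split between them.

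For the 3 members with the widest range of group medians, the genes most like them over the 21 libraries were sought among 8831 genes, by the root mean square difference of log2 CPM after centring each gene on its mean. Ctsd was closest to Cstb (0.344, where Ctsd itself deviated from its mean by 0.844), then Higd1a (0.487) and Anxa3 (0.488). Ctse was closest to Dok3 (1.35), Dusp6 (1.43) and Syne1 (1.47), with a deviation of its own of 2.17. Ctsk was closest to Mt2 (1.71), Spp1 (1.71) and Il1a (1.78), with a deviation of its own of 2.62, so the likeness is loose for Ctse and Ctsk. The libraries share their totals, and no test was made.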

How the data were processed

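RNA-seq of 21 sorted macrophage libraries was analysed in 6 groups, mapped from the sample labels. Libraries were made from low-input RNA with the Clontech and Nextera XT kits. The authors aligned reads to mm10 with the OmicSoft aligner and deposited estimated counts per gene, of which 23.05% to 30.6% per library were not whole. The second deposited table holds values that the authors scaled as TPM, quantile normalised and put on a log2 scale. Its column for RAS KRM replicate 1 did not correspond to the counts (r = 0.0743, others at least 0.902), and which table holds the right library is not known. The log2 table served only in alternatives, with and without that column. DESeq2 is named in the submitters' processing notes.

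The 37620 lines were summed by symbol to 34236 names and rounded. Genes passed edgeR's filter (minimum count 10, total 15) within the libraries of each contrast. Contrasts were fitted with edgeR 4.0.16 (R 4.3.3) by TMM and the quasi-likelihood F test, and adjusted by Benjamini-Hochberg over all genes tested. Called means an adjusted p under 0.05. Levels are CPM of the library total, fold changes are TMM-scaled, and levels between genes are per kb of exon (GENCODE models on GRCm38). Promoter sequences are from RefSeq (GRCm38.p6). The scripts were tested on simulated data.

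The members and lists were chosen with earlier results of these data known. All 10 members are named. From each list up to 3 called genes per contrast and direction were named, those with the greatest absolute log2 fold change, and marker genes only where a result turned on them. Likeness was sought for the 3 members with the widest range of group medians. All 119 listed names were found, 5 under an older symbol. Same-numbered Sham libraries deviated together across populations (r 0.151 to 0.599), most in replicate 3 (0.446 to 0.599). Same-numbered RAS libraries across populations had r of 0.0486 to 0.51, and same-numbered Sham and RAS libraries -0.146 to 0.315. Libraries of different numbers were not compared, so whether the numbers pair libraries is not known.

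Alternatives were other size factors, other filters, 1 fit over all 6 groups, limma 3.58.1 run on the log2 values, DESeq2 1.42.0, the replicate number as a block, the largest line per symbol, and leaving out each library. A run without the Sham libraries of replicate 3, and leaving out each library for the genes named from the lists, were added after the data were seen. Totals were 6891148 to 18592395 counts, so a count of 0 allows up to 0.161 to 0.435 CPM, for counting error only.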

Additional observations from a re-analysis of the deposited data

Results flagged for a closer look

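Dixon's test at the 95% level was made for each of the 10 members in each group of 4 libraries, 30 tests in all. These groups were RAS CD11chiMϕ, RAS CD11cloMϕ and Sham KRM. A library far from the others was found in 4 tests, where chance gives about 1 in 20. The members share the libraries of a group, so the tests are not independent. Ctsd was 3284 CPM in RAS CD11chiMϕ replicate 2, the highest of the 4. Ctsk was 53.55 CPM in the same library, again the highest, and its fibroblast and pericyte markers summed to 287 CPM. Ctse was 53.35 CPM in Sham KRM replicate 4, the lowest of its group. Ctsl was 167.9 CPM in Sham KRM replicate 3, the highest of its group, where proximal tubule markers summed to 8367 CPM. The part of these markers was not tested.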

How the results depend on the processing

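Across alternatives, 201 of the counts of called members stayed within 1.5 times the value reported and 38 did not. Most contrasts had 0 called members, and a count of 0 that stayed at 0 is among the 201, so this tally says little on stability. With DESeq2 the counts became 2 for KRM against CD11chiMϕ in Sham, 1 for KRM against CD11cloMϕ in RAS, 2 for CD11chiMϕ against CD11cloMϕ in RAS, 1 for RAS against Sham in CD11chiMϕ, 6 in KRM, 2 for the response of KRM minus CD11chiMϕ and 4 for KRM minus CD11cloMϕ. With limma they became 1 for CD11chiMϕ against CD11cloMϕ in RAS, 5 for RAS against Sham in KRM and 3 for KRM minus CD11cloMϕ. A pseudocount of 0.1 gave 1, 6 and 3 for these. Without RAS KRM replicate 1 limma gave 8 for RAS against Sham in KRM, 1 for KRM against CD11cloMϕ in RAS and 5 for KRM minus CD11cloMϕ. One fit over all 6 groups gave 1 for RAS against Sham in KRM (Ctsd, while Ctse lost its call at adjusted p = 0.0611) and 4 for KRM against CD11cloMϕ in Sham (without Ctsc), the filter of 10 counts in every library gave 1 for KRM against CD11cloMϕ in RAS, and total library size gave 1 for KRM minus CD11cloMϕ. Without the Sham libraries of replicate 3, counts were 1 for KRM against CD11chiMϕ and 2 for CD11chiMϕ against CD11cloMϕ, and Ctsl in the latter reversed from 0.89 to -0.87 on the log2 scale. The cause was not tested.

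The replicate block changed no call in Sham. Among the contrasts with RAS libraries it gave 1 called member for KRM against CD11cloMϕ and 1 for CD11chiMϕ against CD11cloMϕ in RAS. It gave 1 for RAS against Sham in KRM, where Ctsd had a log2 fold change of 1.70 (adjusted p = 0.0883).

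Leaving out each library gave 0 to 2 called members for KRM against CD11chiMϕ in Sham, 5 to 7 for KRM and 0 to 1 for CD11chiMϕ against CD11cloMϕ in Sham, 0 to 1 for KRM and 0 to 1 for CD11chiMϕ against CD11cloMϕ in RAS, 1 to 8 for RAS against Sham in KRM, and 0 to 5 for KRM minus CD11cloMϕ. Ctse in KRM against CD11cloMϕ in Sham ranged from -1.36 to 2.34 on the log2 scale, the latter without CD11cloMϕ replicate 1. Of 37 calls of genes named from the lists between groups, 15 were kept whichever library was left out, 13 of them among the 16 for KRM against CD11cloMϕ in Sham, where Ctso and Gnptg lost theirs without CD11cloMϕ replicate 2 and Tfe3 without CD11cloMϕ replicate 2 or 3 or KRM replicate 2. For RAS against Sham in KRM, 0 of the 4 were kept throughout, and each was lost by edgeR without Sham replicate 1, 2 or 4 or RAS replicate 2 or 3. In the RAS contrasts between populations, 1 of 13 was kept throughout (H2-DMb2 for CD11chiMϕ against CD11cloMϕ). No direction turned. Total library size moved the median of all genes to 0.26 and 0.27 in the contrasts of KRM with the others in RAS, against 0.03 and 0.06 with TMM. Depth limits Ctsk in Sham, where libraries held 0 to 14 counts.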
